A study of Caenorhabditis elegans with 2 samples.

Results

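The retinoblastoma family protein of the worm and its partners keep cell cycle and germline genes off, and the genes that encode these repressors are described here by the binding of ARID-1 at their 5' ends. The 10 genes, of 19973 protein-coding genes on the nuclear chromosomes, were chosen by name. Of them, 7 encode subunits of DREAM (lin-35, efl-1, dpl-1, lin-9, lin-37, lin-52 and lin-54) and 3 encode other repressors of synMuv class B (lin-13, lin-15B and hpl-2). All 10 symbols were found in the annotation. The data are ChIP-seq peak lists from 2 biological replicates of a single group: L4 larvae of strain RW12194, grown for 47 hours after starvation as hatchlings, whose arid-1 gene (allele st12194) carries TY1, EGFP and 3xFLAG at its own place on chromosome V. ARID-1, which is named for its AT-rich interaction (ARID) domain, was precipitated with anti-GFP from whole animals, so that all tissues are mixed. There is no second group, so the results are positions and levels, with no comparison between conditions, and values of control libraries were not used here.

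DREAM is a repressor complex that joins a pocket protein and an E2F-DP pair to the MuvB core. In the worm LIN-35 is the pocket protein, EFL-1 and DPL-1 are the E2F and DP partners, and LIN-9, LIN-37, LIN-52, LIN-53 and LIN-54 form the core, in which LIN-54 is the subunit that binds DNA. The synMuv genes were found because animals that lose a class A and a class B gene together form several vulvae. LIN-13 is a zinc finger protein that works with HPL-2, a worm HP1 protein that binds methylated histones, and LIN-15B is a nuclear protein with a THAP domain.

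The sequence around the summit is shown for the peaks of 4 genes the results turn on, since it is where ARID-1 signal was highest at these genes. They are peaks of the conservative list at efl-1 (chrV:16965757-16965957, minus strand), lin-9 (chrIII:8904181-8904381, minus strand) and lin-54 (chrIV:13240652-13240777, plus strand), and the peak at dpl-1 that fell just short of the threshold (chrII:9169402-9169602, plus strand). Each reads 5' to 3' on the strand of the gene in the ce11 build (WBcel235 sequence from RefSeq). Each runs 100 bp to either side of the summit, except that the sequence at lin-54 is cut short on its upstream side to leave out the transcribed leader of its neighbour. Capitals mark matches on either strand to a word of the fixed list described further on. The conservative peak at lin-35 is not printed, and of these words it held GCGCG alone.
efl-1: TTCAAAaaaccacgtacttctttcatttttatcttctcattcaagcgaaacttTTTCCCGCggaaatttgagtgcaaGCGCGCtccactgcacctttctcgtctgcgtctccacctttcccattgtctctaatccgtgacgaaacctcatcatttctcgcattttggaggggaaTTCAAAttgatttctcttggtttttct
lin-9: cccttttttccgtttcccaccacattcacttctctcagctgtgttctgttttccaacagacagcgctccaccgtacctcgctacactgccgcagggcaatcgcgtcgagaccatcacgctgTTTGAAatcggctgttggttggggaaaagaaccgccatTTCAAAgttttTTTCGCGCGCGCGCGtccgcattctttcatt
lin-54: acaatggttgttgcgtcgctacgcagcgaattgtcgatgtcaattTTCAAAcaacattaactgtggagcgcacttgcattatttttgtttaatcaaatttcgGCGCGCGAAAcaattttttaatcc
dpl-1: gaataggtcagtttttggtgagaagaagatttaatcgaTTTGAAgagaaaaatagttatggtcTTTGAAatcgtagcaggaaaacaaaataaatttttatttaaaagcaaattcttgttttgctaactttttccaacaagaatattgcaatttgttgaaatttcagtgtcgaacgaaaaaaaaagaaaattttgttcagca

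A summit of the conservative list of the series lay at most 500 bp from the outermost annotated 5' end in 4 of the 10 genes. All 4 were DREAM subunits: the pocket protein gene lin-35, the E2F gene efl-1 and the core genes lin-9 and lin-54. None of lin-13, lin-15B and hpl-2 held a summit. By the same rule 1134 of all 19973 protein-coding genes did (5.68%). Every peak of the conservative list had a −log10 IDR of at least 2.00. IDR stands for irreproducible discovery rate and is low for a peak that ranks consistently high in repeated lists. The longer ranked list of the series held 95 further peaks that reached 2 and were not in the conservative list. No test was run over the 10 genes, which were picked with earlier results of these data known. Because worm messages are often trans-spliced, transcription may begin upstream of the annotated 5' end.

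The peak at lin-9 was the highest among the 10 genes and lay just upstream of a 5' end with no other in reach. Its signal, which is the authors' value per peak in each replicate's ranked list, was 87.3 in replicate 1 and 109 in replicate 2. The mean of 98.0 ± 15.1 (SD, n = 2) was rank 53 of the 928 nuclear promoter peaks with signal in both replicates. The peak covered chromosome III, 8904146 to 8904415, with its summit 150 bp upstream of the gene. The summits in the replicates lay within 2 bp of that place, which is the closest match among the 4 genes. lin-9 was the sole protein-coding 5' end within 500 bp. LIN-9 is a subunit of the MuvB core, and lin-9 is itself a class B gene.

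The peak in the window of lin-54 was as high, but it lay closer to a ribosomal protein gene. Its signal was 92.1 in replicate 1 and 103 in replicate 2, a mean of 97.5 ± 7.68 (SD, n = 2) and rank 54, next after lin-9. The means of lin-9 and lin-54 thus differed by less than the spread between replicates. The peak covered chromosome IV, 13240623 to 13240741, and was narrower (119 bp) than the other 3 (270 bp each). Its summit was 367 bp upstream of lin-54 and 26 bp from the 5' end of rpl-12, which runs the opposite way and encodes a protein of the large ribosomal subunit. Which of the genes this peak serves was not tested. With windows of 250 bp in place of 500 bp, lin-54 no longer held a summit and the count was 3 of 10, against 3.52% of all genes. When a summit counted for the closest gene alone it went to rpl-12, and the count was again 3 of 10, against 4.59% of all genes.

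The peaks at lin-35 and efl-1 formed a lower pair, close to the middle of all promoter peaks. At lin-35 the signal was 37.6 in replicate 1 and 48.3 in replicate 2 (43.0 ± 7.57, SD, n = 2, rank 390 of 928). At efl-1 it was 38.5 and 46.8 (42.7 ± 5.87, SD, n = 2, rank 398). These means differed by less than their spread, while both replicates' values at lin-9 and lin-54 lay above both values at lin-35 and efl-1. The median over the 4 member peaks was 70.2, and that over all 928 promoter peaks 39.7, with quartiles of 32.9 and 53.1.

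The peak at efl-1 lay on chromosome V, 16965722 to 16965991, with its summit 182 bp upstream, and had no other protein-coding 5' end in the window. The summits of the replicates lay within 8 bp of it. The window of lin-35 is shared: the summit lay 167 bp upstream of lin-35 and 251 bp from vps-51, a gene of the opposite strand that is named for a part in vesicle traffic. Its peak covered 5807407 to 5807676 on the chromosome of lin-35, and replicate 1 placed its summit 29 bp from that of the series. Thus 2 of the 4 member peaks had more than 1 protein-coding 5' end within 500 bp, against 23.7% of all 944 nuclear promoter peaks. No 5' end of a non-coding gene lay within 500 bp of any of the 4 summits. All 4 summits lay upstream of the member's 5' end, and none of the 10 genes held a conservative summit inside the gene itself.

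**Figure D1:**
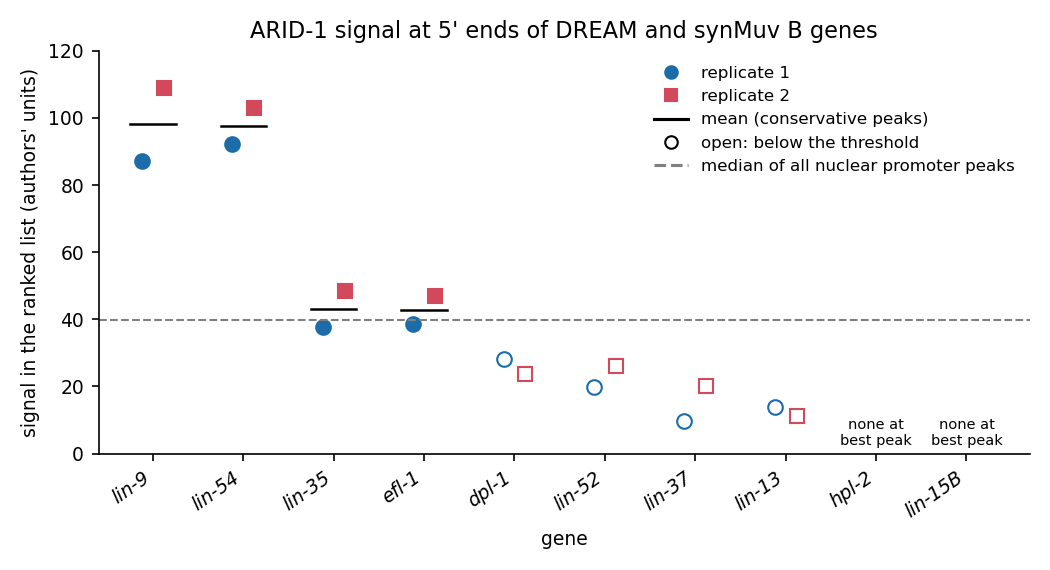
Signal in each replicate's ranked list (y axis, authors' units) at the 5' end of each gene (x axis), at the conservative peak or, where there is none, at the ranked peak with the best IDR (open symbols). Bars are means of 2 replicates and the dashed line is the median of all nuclear promoter peaks (39.7); lin-9 and lin-54 stand near 98, lin-35 and efl-1 near 43, and at hpl-2 and lin-15B neither replicate had a peak overlapping the best ranked peak of the series.

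The plot of signal by gene shows a step in the same direction between the replicates at each conservative peak. Replicate 2 was higher than replicate 1 at all 4 peaks, with a log2 ratio of 0.36 at lin-35, 0.32 at lin-9, 0.28 at efl-1 and 0.16 at lin-54. Over the 2261 nuclear conservative peaks with both values the median of this log2 ratio was 0.11 with an SD of 0.43, and 60.1% of them were higher in replicate 2. The ratios at the 4 genes therefore lay within the spread of all peaks. How the lists were scaled to each other is not stated, so a difference in scale and a difference in binding cannot be told apart.

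The replicates' own thresholded lists, which are shorter, kept the higher pair and divided on the lower one. The list of replicate 1 held summits at 2 of the 10 genes, lin-9 and lin-54, against 3.02% of all genes. The list of replicate 2 held them at 3, with lin-35 added, against 3.04%. The peak at efl-1 was in neither list: its −log10 IDR was 1.86 in the ranked list of replicate 1 and 1.82 in that of replicate 2, but 3.29 in the ranked list of the series. At lin-35 these values were 1.80, 2.40 and 3.31. At lin-9 they were 4.96, 5.00 and 5.00, and at lin-54 5.00, 4.57 and 5.00, where 5 is the highest value the lists give.

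**Figure D2:**
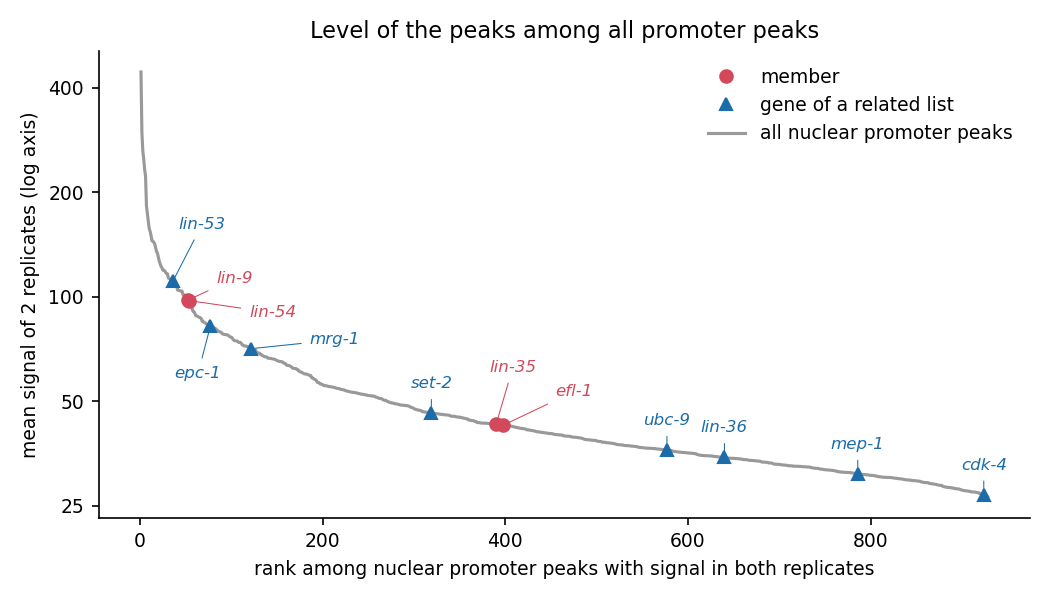
Mean signal of 2 replicates (y axis, log scale) against rank for the 928 nuclear promoter peaks with signal in both replicates (x axis), with the 4 member peaks as circles and the 8 peaks of genes from related lists as triangles. lin-9 and lin-54 lie at ranks 53 and 54 beside lin-53 at rank 36, while lin-35 and efl-1 lie at ranks 390 and 398.

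In the order of promoter peaks by mean signal, the neighbours of the 4 peaks were mixed. Next above lin-9 was the peak shared by scpr-1 and gpap-1 (mean signal 99.6), and next below lin-54 that of rps-15 and F36A2.9 (95.8). The peak above lin-35 was that of oef-1 and cdd-2 (43.0), and the one below it that of Y56A3A.7 (42.8). efl-1 stood between the peak of pola-1 and Y47D3A.1 and that of asp-1, both with a mean of 42.7. These are neighbours in level over 2 libraries and nothing more.

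The remaining 6 genes had ranked peaks in the window that did not pass the threshold. In the ranked list of the series, which holds 77384 peaks, all 10 genes had at least 1 peak within 500 bp, against 55.8% of all genes, so an entry in that list is common. The ranked list of replicate 1 held a peak at 8 of the 10 (38.5% of all genes) and that of replicate 2 at 9 (40.2%). Among the 10013 genes with a ranked peak and no conservative summit, the median of the best −log10 IDR was 0.22 and 8.52% reached 1. For the 6 members the median was 0.32, and 2 of them, dpl-1 and lin-52, passed 1. The members nearest to the threshold on either side were efl-1 with 3.29 and dpl-1 with 1.79.

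dpl-1, which encodes the DP partner of EFL-1, thus came closest without passing. Its best ranked peak had a −log10 IDR of 1.79 and its summit 408 bp upstream, at chromosome II, 9169367 to 9169636. The signal there was 28.3 in replicate 1 and 23.6 in replicate 2, both below both values at efl-1. Each replicate's own ranking put this peak far lower, with a −log10 IDR of 0.36 in replicate 1 and 0.14 in replicate 2, and their summits lay 354 and 421 bp upstream. The nearest conservative summit was 41955 bp away.

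lin-52, a gene for a small core subunit, changed with the list. Its best ranked peak lay 75 bp inside the gene (chromosome III, 9824540 to 9824809), with a −log10 IDR of 1.42 and a signal of 19.7 in replicate 1 and 26.0 in replicate 2. In the other ranked list of the series the best value at lin-52 was 2.38, and a summit of the other thresholded list lay in its window. With that list 5 of the 10 genes held a summit, against 5.45% of all genes, the 4 above and lin-52. The value of dpl-1 in that ranked list was 1.37.

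lin-37, lin-13, hpl-2 and lin-15B had weak entries alone. At lin-37, another core subunit gene, the best ranked peak lay 108 bp inside the gene with a −log10 IDR of 0.20 and a signal of 9.59 in replicate 1 and 20.2 in replicate 2. At lin-13 the best value was 0.29, in a peak 246 bp upstream with signals of 13.8 in replicate 1 and 11.2 in replicate 2, and a peak 473 bp inside the gene had the same rounded value. At hpl-2 the best peak of the series list lay 349 bp upstream (0.35), and neither replicate's ranked list had a summit in the window. At lin-15B, the only X-linked member, the best peak lay 366 bp upstream (0.27), no peak of replicate 1 lay in the window, and that of replicate 2 lay 277 bp inside the gene with a signal of 19.0. In the other ranked list of the series the best values were 0.90 at lin-37, 0.41 at lin-13, 0.42 at hpl-2 and 0.21 at lin-15B. The replicates' own ranked lists gave lin-37 a best value of 0.21 in replicate 1 and 0.67 in replicate 2. All replicate signals named here were below those at lin-35 and efl-1. The lists give no read counts, so the depth of the libraries is unknown, and whether weaker binding was missed at these genes was not tested.

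**Figure D3:**
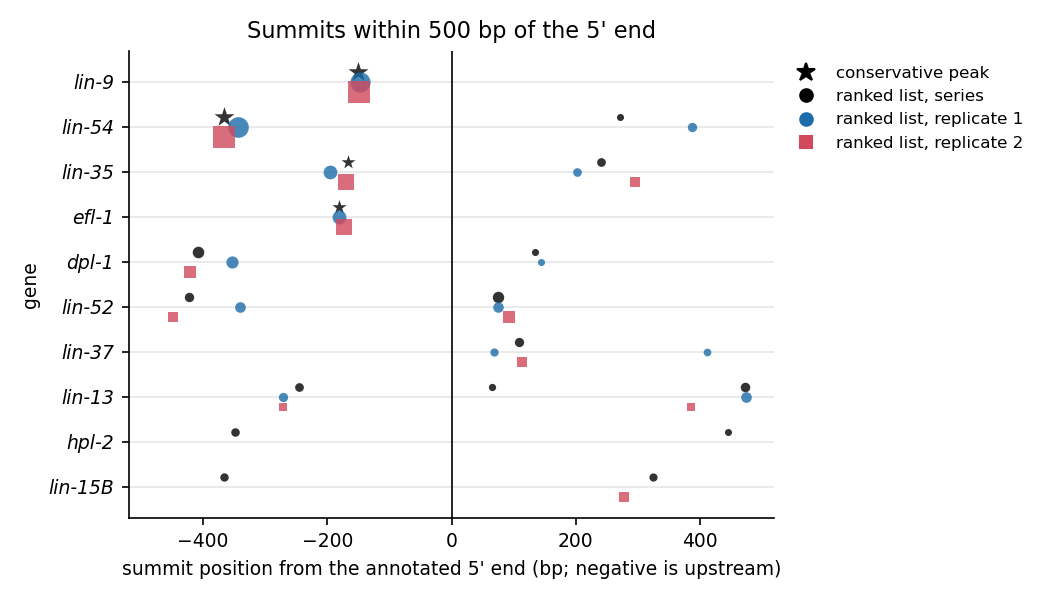
Position of every ranked summit from the annotated 5' end (x axis, bp, negative is upstream) for each gene (y axis) in the ranked list of the series (black, stars for conservative peaks) and of each replicate (blue and red), with marker area growing with signal and series signal drawn at a smaller scale. At lin-9, lin-54, lin-35 and efl-1 the highest summit of each list lies at a shared place upstream, lin-35 and lin-54 also have low summits downstream, and the other genes have weaker summits alone.

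Some of the genes without a summit lie close behind another gene. A gene was called operon-like when the next protein-coding gene upstream on its strand ended less than 500 bp before it or overlapped it. Worm genes that lie close behind another can be transcribed from a promoter farther upstream. This held for 3 of the 10 genes, lin-37, lin-52 and hpl-2, and none of these held a conservative summit. Of all protein-coding genes 20.6% were operon-like. Of those 4122 genes 6.50% held a summit, against 5.46% of the other 15851. Whether this position bears on the missing summits at lin-37, lin-52 and hpl-2 was not tested.

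The starts of the runs that hold these genes did not carry a summit within 500 bp either. lin-37 follows ZK418.5 by 60 bp in a run of 4 genes upstream of it, and the first of them, ZK418.7, was 21284 bp from the nearest conservative summit. lin-52 follows ZK632.9 by 126 bp, and ZK632.9 was 23892 bp from the nearest summit, with a best ranked −log10 IDR of 1.65. hpl-2 follows rnf-113 by 93 bp, and the run begins with K01G5.10. The 5' end of K01G5.10 lay 722 bp from the strong peak at tasp-1, a gene named for the protease taspase. That peak had a signal of 280.1 in replicate 1 and 314 in replicate 2. It lay 3714 bp upstream of hpl-2 itself, and whether it acts on that run was not tested. Among the members without a summit, lin-13 was the nearest to one, 2545 bp from a summit at C03B8.3 (32.1 in replicate 1 and 30.5 in replicate 2).

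Words that E2F and MuvB proteins are known to favour were present around several of the member summits. The fixed list held 10 words, searched on both strands within 100 bp to either side of the summit. The word TTTGAA, and likewise the variant TTCGAA, is a form of the cell cycle genes homology region that LIN-54 family proteins bind. The E2F-like words were TTTCCCGC, TTTGGCGC, TTTCGCGC and TTTGCCGC. The GC-rich word GCGCG, which overlaps TTTCGCGC, was joined by the word CCGCCC, by the AT-rich word AATTAA and by another AT-rich word, AATATA. TTTCCCGC was found at efl-1 alone, 43 bp upstream of the summit, and in 1.21% of the 2306 nuclear conservative peaks. TTTCGCGC was found at lin-9, 74 bp on the gene side of the summit, and at lin-54, 83 bp on that side, and in 2.21% of nuclear peaks. At least 1 of the 4 E2F-like words thus lay within 100 bp of the summit at 3 of the 4 member peaks. The same was true of 6.03% of nuclear peaks and 7.63% of nuclear promoter peaks. In the sequences printed above, the matches are the capitals TTTCCCGC at efl-1 and the start of the last run of capitals at lin-9. At lin-54 the match is in the last block of capitals, which lies past the end of the called peak (119 bp wide).

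TTTGAA was present at efl-1, lin-9 and lin-54 and in 30.6% of nuclear peaks and 35.3% of nuclear promoter peaks. At efl-1 it lay 97 bp upstream and 77 bp downstream of the summit, at lin-9 24 and 62 bp downstream, and at lin-54 23 bp downstream. GCGCG was present within 100 bp of all 4 summits, and in 30.7% of nuclear peaks and 40.6% of nuclear promoter peaks. At lin-35 its nearest match lay 35 bp downstream of the summit. At lin-54 its matches all lay past the end of the called peak. The other words were found at none of the 4 member peaks. In nuclear peaks the share was 14.7% for the word TTCGAA, 1.08% for TTTGGCGC and 1.73% for TTTGCCGC. It was 11.1% for the word CCGCCC and 16.7% for the word AATTAA, and the word AATATA was in 277 of the 2306 peaks. Within 50 bp to either side of the summit the E2F-like words were left at efl-1 alone (3.21% of nuclear peaks) and GCGCG at lin-35 and efl-1 (21.7%). In that shorter window TTTGAA was left at lin-9 and lin-54 (13.8% of nuclear peaks and 17.4% of nuclear promoter peaks). The peak at dpl-1 below the threshold held TTTGAA 59 and 34 bp upstream of its summit and none of the other words. The GC share within 100 bp of the summit was 52.2% at lin-9, 44.8% at lin-54, 42.3% at efl-1 and 36.8% at lin-35, and over nuclear peaks its median was 44.3% with quartiles of 39.3% and 49.3%. A match is a word in the sequence, not a measured site.

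The DREAM subunit outside the 10 genes, lin-53, carried the highest peak of the complex. LIN-53 is a histone-binding protein of the RbAp48 family that also serves in other chromatin complexes. The signal at lin-53 was 96.6 in replicate 1 and 125 in replicate 2 (111 ± 19.8, SD, n = 2, rank 36 of 928). Its summit lay 210 bp upstream of lin-53 and 257 bp from nra-2, so that it too is shared. With it, 5 of the 8 DREAM subunit genes held a conservative summit, against 5.68% of all genes, and dpl-1, lin-37 and lin-52 did not. The signal at lin-53 was above those at lin-9 and lin-54 within each replicate, while lin-54 was above lin-9 in replicate 1 and below it in replicate 2. The ranges over the replicates of these 3 genes overlap.

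Of 51 genes in 8 lists around the pathway, lin-53 among them, 8 held a summit, against 5.68% of all genes. Of 13 further class B genes, 3 did: lin-36 (a THAP domain protein, 34.5 ± 3.87), ubc-9 (the SUMO-conjugating enzyme, 36.2 ± 12.6) and mep-1 (a zinc finger protein, 30.9 ± 1.62; SD, n = 2 each). Of 7 suppressors of class B phenotypes, 2 did: mrg-1 (a chromodomain protein, 70.9 ± 21.3) and set-2 (a histone H3 methyltransferase, 46.2 ± 2.31). The summit at mrg-1 lay nearer to spcs-2 (133 bp) than to mrg-1 (242 bp). Of 4 class C genes 1 did, epc-1, which encodes an enhancer of Polycomb homologue (82.3 ± 13.6). Of 9 cell cycle partners, cdk-4 alone did, with the low signal of 26.9 ± 0.446 (rank 924 of 928) and a −log10 IDR of 2.02, just over the threshold. The peak at ubc-9 was uneven, with a signal of 45.1 in replicate 1 and 27.3 in replicate 2. Its −log10 IDR was 2.61 in the ranked list of replicate 1 and 0.12 in that of replicate 2. The summit at epc-1 lay 206 bp from epc-1 and 497 bp from Y111B2A.12, so that it is shared. Non-coding 5' ends lay within 500 bp of the summits at epc-1, mep-1 and lin-36. In the lists of single replicates 6 of the 51 genes held a summit with replicate 1 (3.02% of all genes) and 4 with replicate 2 (3.04%), and with the 1165 peaks of higher signal 4 did (3.06%).

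No summit lay at any of the 4 class A genes, the 9 genes of vulval signalling, from the ligand gene lin-3 and the receptor gene let-23 to the Hox gene lin-39, or the 4 germline genes pgl-1, pgl-3, glh-1 and deps-1. With 5.68% of all genes holding a summit, lists this short would often hold none, so these zeros do not set the lists apart, and the same holds for lin-13, lin-15B and hpl-2. The best −log10 IDR was 1.79 in class A (lin-56), 0.66 in vulval signalling (lin-31) and 0.61 among the germline genes (pgl-3). By the operon-like rule above, glh-1 lies in a run that begins with syp-4, whose 5' end was 234 bp from a conservative summit. Likewise lin-56 lies behind ZK673.2, whose 5' end was 256 bp from such a summit. Whether these summits act on glh-1 or lin-56 was not tested. The median signal over the 8 peaks of the related lists was 41.2, against 39.7 over all promoter peaks. These counts were not tested against each other.

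**Figure D4:**
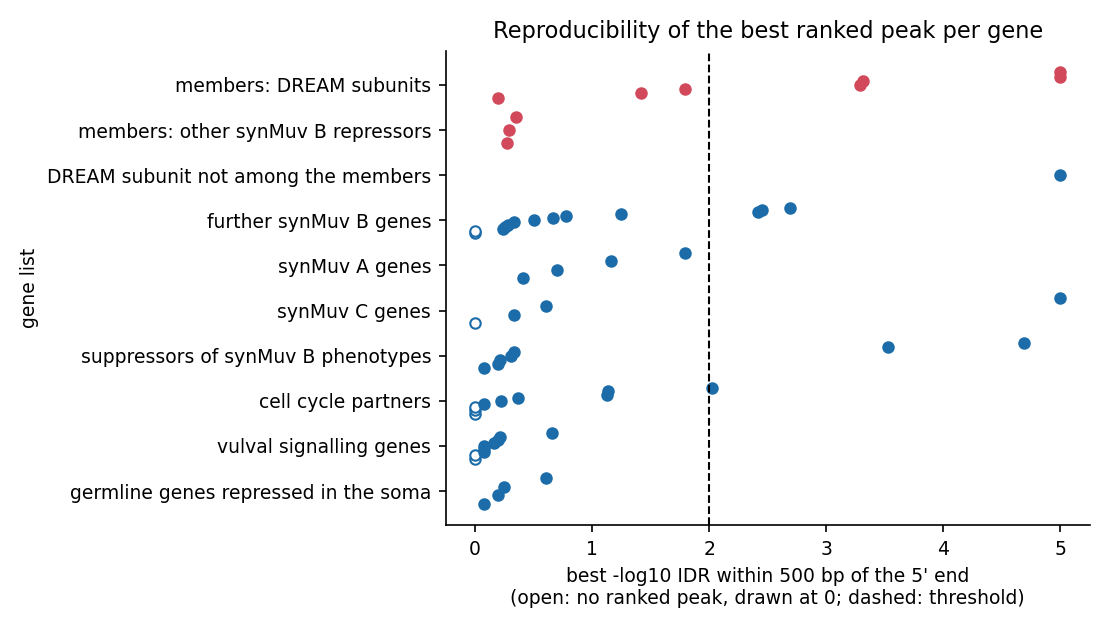
Best −log10 IDR of a ranked peak within 500 bp of the 5' end (x axis) for each gene, by list (y axis), with the 10 members in red, related genes in blue and the dashed line at 2. In the DREAM list 4 genes lie to the right of the line, while lin-13, lin-15B and hpl-2 lie at or below 0.35.

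The 4 genes with a summit were also those counted under 4 further rules. These were the 1165 peaks of higher signal (3.06% of all genes), windows from 1000 bp upstream to 500 bp downstream (7.09%), the 5' end of any annotated transcript (6.12%) and overlap of the peak interval with the window in place of the summit (6.25%). All but the first of these rules include every gene that the main rule counts. They could add genes but could not lose any of the 4.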

How the data were processed

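ChIP-seq peak lists on the ce11 build, per the labels, were used from 2 replicates, which the labels tie to different biosamples. Each deposited list holds the authors' signal for every peak, on a scale that is not stated, and the authors' ranked lists add the −log10 of the IDR. The aligner and the peak caller are not stated in the sources used. The ranked lists of the series also hold 4 columns of component signal without names, which were not used. Gene models came from Ensembl release 115 and sequence from RefSeq, both on WBcel235. A gene held a summit when one lay within 500 bp of its outermost 5' end. Signal per replicate was that of the highest ranked peak overlapping the conservative peak. The window rule was checked on placed summits. Members, lists, words and rules for named genes (all members, every related gene with a summit, genes sharing a window, neighbours in level) were chosen with earlier results of these data known, and no tests were run. RefSeq promoter and protein tables were not used here. Tools were Python 3.11.15, pandas 2.3.3, numpy 2.4.6 and matplotlib 3.10.9.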

Additional observations from a re-analysis of the deposited data

How the results depend on the processing

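The count of 4 genes with a conservative summit was 2 in the list of replicate 1 alone and 3 in that of replicate 2 alone, so leaving out a replicate gave a range of 2 to 3. These lists are shorter than the conservative list (1230 and 1257 peaks, against 2330). Under the other 7 settings the count lay between 3 and 5. Among these, the wider window, any transcript 5' end and interval overlap could only add genes to the count. The count of 8 related genes was 7 with the other list of the series, 6 with 250 bp windows and 8 with any transcript 5' end. It was 6 in the list of replicate 1 and 4 in that of replicate 2. With windows from 1000 bp upstream to 500 bp downstream it rose to 11 (7.09% of all genes), and with interval overlap to 10 (6.25%). When a summit counted for the closest gene alone it was 7 (4.59%), and with the peaks of higher signal 4 (3.06%). Signals in the conservative list itself were higher (192 at lin-9, 190.2 at lin-54, 90.6 at efl-1 and 85.5 at lin-35), on the scale of the joint list. Within 50 bp to either side of the summit TTTCGCGC was found at 0 member peaks and GCGCG at 2. Without read counts, depth sets no stated limit. No paired analysis was possible because there is a single group and no test.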
